A study of Mus musculus with 2 samples.

Results

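TR binding sites (TRBS) were examined at 8 genes of cholesterol synthesis, uptake and export: Hmgcs1, Sqle, Srebf2, Insig1, Insig2, Abca1, Abcg1 and Scarb1. The examined cells were brown adipocytes. Each gene was given the TRBS whose summit, the position of the highest pileup, lay within 100 kb of the transcription start site (TSS), and sites within 30 kb, the distance used by the study, were treated separately. This gave 18 of the 5107 TRBS in the list, of which 4 lay within 30 kb. The mice were adult C57BL/6J males of 8 to 12 weeks whose brown adipocytes alone expressed TRα1 with a GS tag. Propylthiouracil in the food for 2 weeks had made them hypothyroid, and thyroid hormone was injected during the last 24 h. One chromatin immunoprecipitation (ChIP) library was compared by the authors with 1 input library, both from brown adipose tissue with the same genotype and treatment. Neither library had a replicate. A ChIP without hormone was not analysed here, so that no change with hormone was tested. Gene expression was not measured in these libraries. The number of animals per library and the promoter that directed the tagged receptor to brown adipocytes are not given in the sources used here.

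Cells make cholesterol from acetyl-CoA by a long series of enzymes. The transcription factor SREBP2, encoded by Srebf2, switches the genes of these enzymes on when the membranes of the endoplasmic reticulum are low in sterol, and the INSIG proteins hold the SREBP2 precursor back when sterol is abundant. Surplus cholesterol is handed to lipoproteins by the transporters ABCA1 and ABCG1, whose genes are classic targets of the oxysterol receptor LXR. TR and LXR both form heterodimers with RXR and both can recognise the DR4, a direct repeat of the AGGTCA half-site with a spacer of 4 bases.

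The sequences at the 4 TRBS within 30 kb are shown first, since they are the sites that the distance criterion of the study links to these genes. Each covers 75 bases on both sides of the summit in GRCm38, and the strand is that on which the marked element runs in the orientation of AGGTCA. Capitals mark both half-sites of a DR4 with at most 2 mismatches (Abcg1, Scarb1) or, where there was none, an exact AGGTCA half-site (Srebf2). The Hmgcs1 window held neither.
Hmgcs1, chr13:119713272-119713422, forward strand: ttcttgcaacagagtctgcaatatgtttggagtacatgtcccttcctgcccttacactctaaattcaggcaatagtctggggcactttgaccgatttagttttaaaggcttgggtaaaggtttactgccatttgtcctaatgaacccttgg
Srebf2, chr15:82148391-82148541, forward strand: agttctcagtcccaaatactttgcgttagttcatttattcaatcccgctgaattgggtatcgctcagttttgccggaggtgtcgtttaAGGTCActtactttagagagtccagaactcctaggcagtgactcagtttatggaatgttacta
Abcg1, chr17:31039645-31039795, reverse strand: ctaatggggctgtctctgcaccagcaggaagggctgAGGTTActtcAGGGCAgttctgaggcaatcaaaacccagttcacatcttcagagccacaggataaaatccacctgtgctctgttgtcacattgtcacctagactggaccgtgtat
Scarb1, chr5:125331395-125331545, forward strand: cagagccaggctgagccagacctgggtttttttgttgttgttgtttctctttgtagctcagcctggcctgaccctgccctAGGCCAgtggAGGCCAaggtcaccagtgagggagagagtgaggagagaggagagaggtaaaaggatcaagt

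A TRBS within 30 kb was present for 4 of the 8 genes, namely Hmgcs1, Srebf2, Abcg1 and Scarb1, with 1 TRBS each. Among all 21938 protein-coding genes, 16.7% had a TRBS within 30 kb. Within 100 kb, 7 of the 8 genes had a TRBS, against 38.3% of all protein-coding genes, and Insig2 had none. The 8 genes were chosen with earlier results of these data known, so the excess over the background was not tested. When only TRBS scored at least 60 were kept, the same count of 4 genes had one within 30 kb, against 14.1% of all protein-coding genes. The number of TRBS within 30 kb depended on the start sites used, and it was 8 when the TSS of every annotated transcript was considered, because 5 TRBS then lay within 30 kb of a Scarb1 start site.

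**Figure D1:**
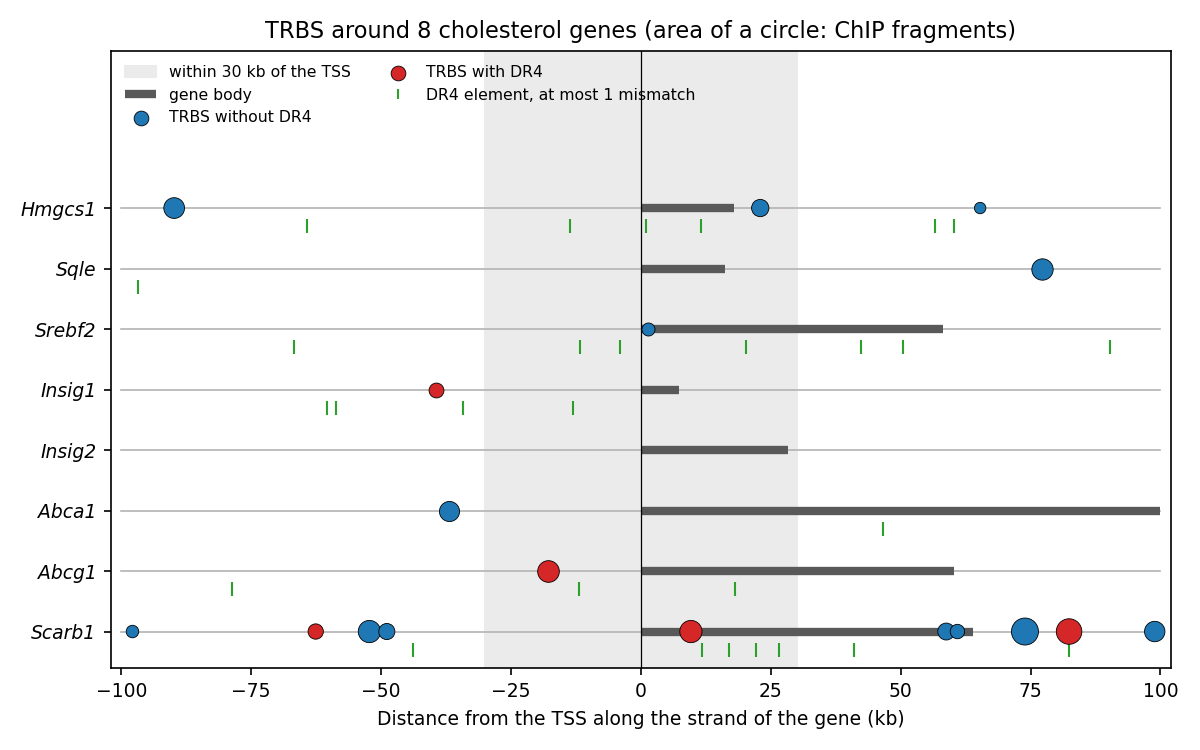
Position of TRBS around the 8 genes, as the distance in kb of each summit from the TSS along the strand of the gene. Circles are TRBS with an area proportional to the number of ChIP fragments, red with and blue without a DR4 of at most 2 mismatches, green ticks are DR4 elements of at most 1 mismatch, dark bars are gene bodies (Abca1 runs past the frame), and the grey band is the interval of 30 kb on both sides. Scarb1 had 10 of the 18 TRBS, Insig2 had none, and 1 of the 29 green ticks coincided with a TRBS.

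Among the genes of synthesis, Hmgcs1 encodes the cytosolic HMG-CoA synthase, which acts early in the pathway. Its TRBS within 30 kb, on chromosome 13 from 119713081 to 119713534, had its summit 22968 bp downstream of the Hmgcs1 TSS (119690379). This is 5087 bp past the 3′ end of Hmgcs1, in intron 3 of the neighbouring gene Nim1k. No other protein-coding TSS was nearer. It had 23 ChIP fragments at the summit (95% Poisson interval 14.6 to 34.5) over an input background of 0.913 fragments on the ChIP scale, which gave a fold of 12.5. This was more fragments than 65.9% of all TRBS had. It contained no DR4 with at most 2 mismatches and no exact half-site, and the only other motif searched that it contained was a C/EBP-like octamer, TTGCACAA, 259 bp from the summit.

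Hmgcs1 had 2 further TRBS between 30 and 100 kb, and both were closer to another gene. The site 65291 bp downstream (119755426 to 119755742) lay in intron 1 of Nim1k, 212 bp from its TSS, with 10 fragments (4.80 to 18.4) and a fold of 4.36. Its score of 30 was below the threshold of 60 that the study applied. The site 89833 bp upstream (119599801 to 119600582) lay in intron 1 of Tmem267, but the nearest protein-coding TSS was that of a different gene. It had 33 fragments (22.7 to 46.3). Its input background, however, was 8.52 fragments, against a median of 0.672 over all TRBS, and its fold was only 3.57. It was 77.0% repeat sequence. It was the single site among the 18 with a background above 2 fragments.

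Sqle encodes squalene epoxidase, which carries out the first oxygen-dependent step of sterol synthesis. No TRBS was detected within 30 kb of its TSS (chromosome 15: 59315077). The nearest TRBS (59391921 to 59392393) lay 77105 bp downstream, in intron 2 of Nsmce2, a gene of the SMC5/6 complex whose TSS was only 17935 bp away. It had 35 fragments (24.4 to 48.7) and a fold of 21.6, and it contained no DR4.

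Among the regulators, Srebf2 had the TRBS closest to a gene start. Its summit lay 1285 bp downstream of the Srebf2 TSS (chromosome 15: 82147181), in intron 1, and 441 bp from the start of another annotated Srebf2 transcript. Only 3.32% of protein-coding genes had a TRBS at this distance or closer. The site (82148270 to 82148661) had 13 fragments (6.92 to 22.2) and a fold of 9.63. Fewer fragments were found in 31.4% of all TRBS and a lower fold in 48.6%, so that its fold was close to the median of the list. No DR4 was found in it, but an exact AGGTCA lay 15 bp from the summit.

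Insig1 and Insig2 encode the 2 sterol-dependent anchors of the SREBP pathway, and they differed in their surroundings. The only TRBS within 100 kb of the Insig1 TSS (chromosome 5: 28071363) was 39432 bp upstream (28031721 to 28032093), in intron 2 of the long noncoding RNA Gm26608. It had 17 fragments (9.90 to 27.2), equal to the median of all TRBS, and a fold of 12.6. Its DR4, AGGTTAaataATGTCA (chr5:28031781-28031796), had 2 mismatches and lay 142 bp from the summit, while an exact half-site was nearer, at 67 bp. For Insig2 (chromosome 1, TSS at 121332589), the nearest TRBS was 1084111 bp away, and 89.2% of protein-coding genes had a closer one. The weakest sites of the list had 5 fragments where the background was lowest, so that weaker occupancy at Insig2 was not detectable at this depth.

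Among the genes of export, Abcg1 encodes a transporter that passes cholesterol to HDL, and its TRBS was the second strongest of the 4 within 30 kb. The site (chromosome 17: 31039410 to 31039892) was intergenic, 17955 bp upstream of the Abcg1 TSS (31057675), which was also the nearest protein-coding TSS. It had 36 fragments (25.2 to 49.8) over a background of 1.22, with a fold of 16.7, and 84.2% of all TRBS had fewer fragments. Its DR4 on the reverse strand, AGGTTActtcAGGGCA, lay 31 bp from the summit and carried the substitutions C5T and T14G relative to the consensus, counted from 1 at the 5′ end of the element. An E-box, CACGTG, was located 93 bp from the summit, and 8.99% of all TRBS held one. Repeat sequence made up 49.3% of this site.

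Abca1 encodes the transporter that loads lipid-poor apolipoprotein A-I with cholesterol. It had no TRBS within 30 kb of its TSS (chromosome 4: 53159895), and its only TRBS within 100 kb was intergenic, 36843 bp upstream (53196569 to 53196925). This site had 31 fragments (21.1 to 44.0) and a fold of 14.7. Its only AGGTCA lay 3 bp from the summit, and no second half-site completed a DR4 with at most 2 mismatches.

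Scarb1 encodes SR-BI, the HDL receptor that takes up cholesteryl esters selectively, and it had the densest surroundings. Its TRBS within 30 kb (chromosome 5: 125331237 to 125331675) lay in intron 1, 9624 bp downstream of the TSS (125341094). It had 38 fragments (26.9 to 52.2) and a fold of 17.6, the most fragments of the 4 sites within 30 kb. Its interval did not overlap that of the Srebf2 site, but it overlapped those of the Hmgcs1 and Abcg1 sites. The DR4, AGGCCAgtggAGGCCA, lay 12 bp from the summit with the substitutions T4C and T14C. An exact AGGTCA followed the second half-site directly, without a spacer (125331491 to 125331496), so that 3 half-site-like hexamers stood in the same orientation. The site was 46.2% repeat sequence.

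Within 100 kb, Scarb1 had 10 TRBS, 4 upstream and 6 downstream of its TSS. Only 0.137% of protein-coding genes (30 of 21938) had 10 or more TRBS in such an interval. Both sites with the most fragments among the 18 were located past the 3′ end of Scarb1, in intron 1 of the long noncoding RNA Gm32585. The TRBS 73918 bp downstream (125266786 to 125267501) had 56 fragments (42.3 to 72.7) and a fold of 39.7, and 93.9% of all TRBS had fewer fragments. The TRBS 82408 bp downstream (125258309 to 125259001) had 50 fragments (37.1 to 65.9) and a fold of 35.7. Their intervals overlapped, but their sequences differed, since the first contained neither a DR4 nor an AGGTCA over its whole width of 716 bp, whereas the second contained AGGTCAgcccAGGCCA, with the single substitution T14C, 7 bp from the summit. This was the best DR4 found in any of the 18 sites. These windows are shown with that of Abca1, where the half-site stood alone.
Scarb1, strongest TRBS, chr5:125267101-125267251, forward strand: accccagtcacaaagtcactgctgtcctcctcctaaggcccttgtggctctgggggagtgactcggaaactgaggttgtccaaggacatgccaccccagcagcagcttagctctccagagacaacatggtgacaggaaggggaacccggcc
Scarb1, second strongest TRBS, chr5:125258611-125258761, forward strand: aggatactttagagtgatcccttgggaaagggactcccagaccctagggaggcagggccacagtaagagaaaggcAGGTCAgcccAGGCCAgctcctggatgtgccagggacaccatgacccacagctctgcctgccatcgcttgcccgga
Abca1, chr4:53196663-53196813, forward strand: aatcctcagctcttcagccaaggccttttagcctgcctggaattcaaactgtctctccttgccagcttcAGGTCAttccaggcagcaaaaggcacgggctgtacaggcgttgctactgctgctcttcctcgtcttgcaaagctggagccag

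The other 7 TRBS around Scarb1 had between 12 and 38 fragments. Inside the gene, 2 sites lay in introns 11 and 12, at 58764 and 60916 bp from the TSS, with 22 and 16 fragments. They were 2152 bp apart, the smallest gap between neighbouring sites at this locus, and neither contained a DR4. The sites upstream were closer to other genes. The TRBS 48905 bp upstream had 20 fragments and an exact half-site 18 bp from the summit. The TRBS 52259 bp upstream had 38 fragments, was the widest of the 18 with 1026 bp, and held 4 exact half-sites. It also held the only DR1 among the 18 sites, a direct repeat of AGGTCA with a spacer of 1 base and at most 2 mismatches, which is the type of element bound by PPAR with RXR. A DR1 was found in 14.9% of all TRBS. The TRBS 62592 bp upstream had 18 fragments and the DR4 AGGACAgccgAGGACA, 15 bp from the summit, with the substitutions T4A and T14A. Of the 10 TRBS, 4 had the Scarb1 TSS as the nearest protein-coding TSS and the others had that of another gene, so that they cannot be attributed to Scarb1 from their position alone. At the limit of 100 kb, the sites just inside were 97861 bp upstream with 12 fragments and 98896 bp downstream with 32, and the next site outside was 114521 bp downstream with 18 fragments.

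**Figure D2:**
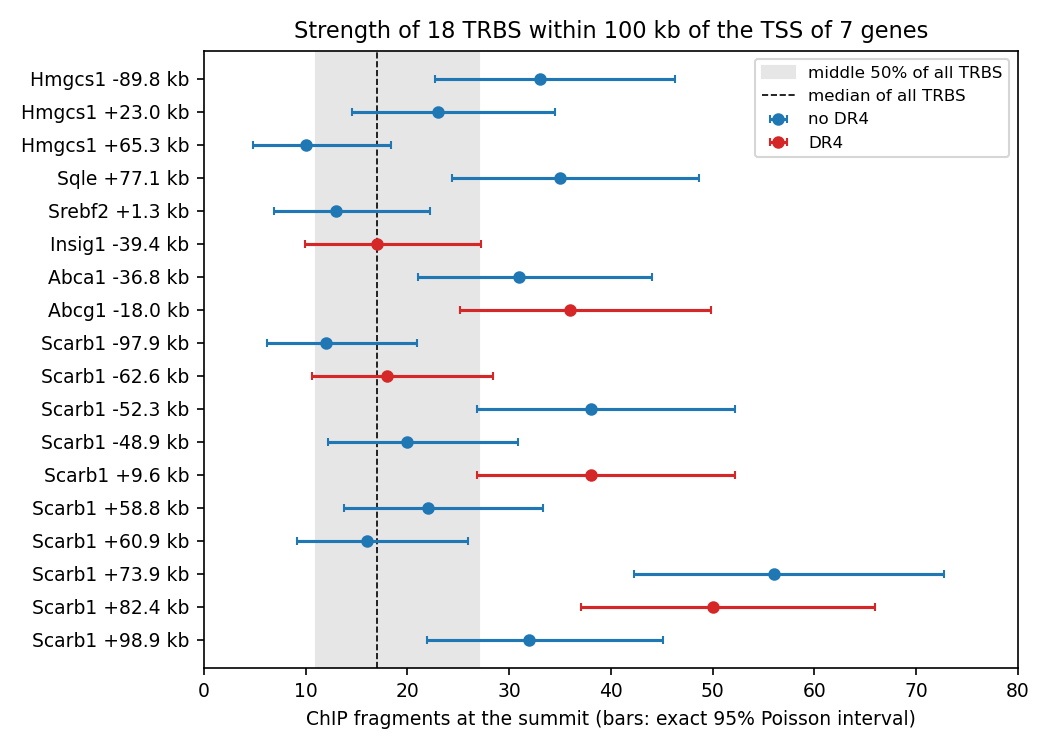
ChIP fragments at the summit of each of the 18 TRBS, with exact 95% Poisson intervals that cover counting error only, in red for sites with a DR4 of at most 2 mismatches. The grey band is the middle 50% of all TRBS (11 to 27 fragments) and the dashed line is their median of 17. The sites at 73.9 and 82.4 kb from the Scarb1 TSS were highest, with 56 and 50 fragments, and sites with and without a DR4 covered overlapping ranges.

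The 18 sites had a median of 27 fragments, with a range of 10 to 56, and the median over all TRBS was 17. The median fold was 13.6, against 9.83 for all TRBS. The median did not depend on Scarb1, since its 10 sites and the 8 sites of the other genes both had a median of 27 fragments. A score of at least 60 was reached by 16 of the 18 sites, including the 4 within 30 kb. No summit was in a promoter, taken as 1000 bp upstream to 100 bp downstream of the nearest protein-coding TSS. An intron of a coding or noncoding gene held 12 summits and 5 were intergenic. The summit was closest to the TSS of the assigned gene for 9 sites, and closest to that of another protein-coding gene for the other 9. For the 4 sites within 30 kb, the assigned gene was always the closest.

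**Figure D3:**
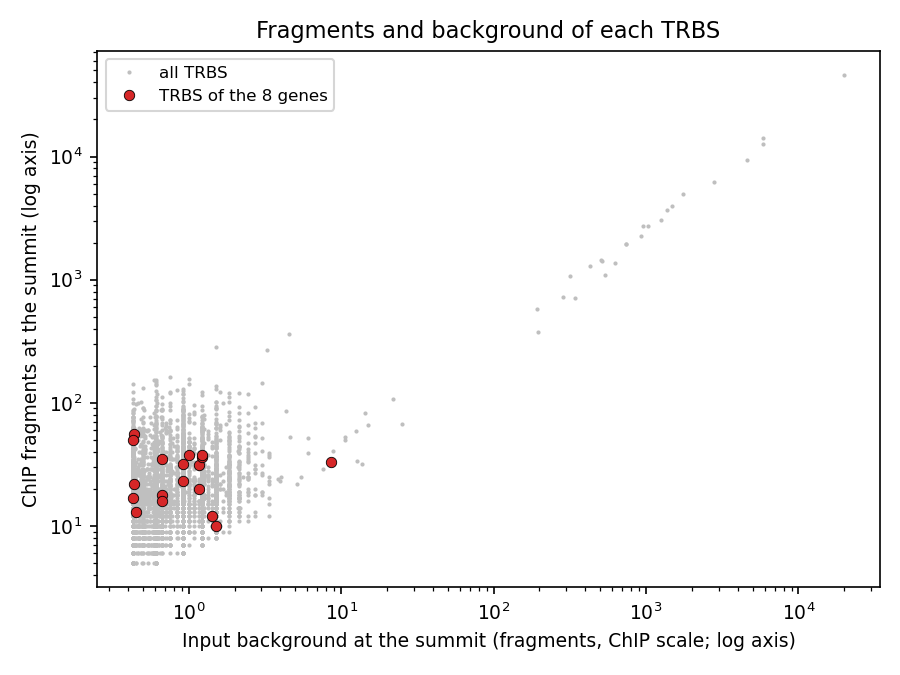
ChIP fragments against the input background at the summit for all 5107 TRBS (grey) and the 18 TRBS of the cholesterol genes (red), both on log axes and on the scale of the ChIP library. Of the red points, 17 had a background under 2 fragments, and the exception was the repeat-rich site upstream of Hmgcs1, at 8.52.

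A DR4 with at most 2 mismatches was present in 5 of the 18 sites (2 of the 4 within 30 kb), against 32.0% of all TRBS and 5.44% of flanking windows of the same width. These 5 elements lay 7 to 142 bp from the summit, 4 of them within 50 bp. An exact AGGTCA on either strand was found in 10 of the 18 sites, against 56.0% of all TRBS and 27.6% of flanks. Both counts were near the shares in the whole list. Motifs of other factors were found in few sites. The sterol regulatory element, the site of SREBP, was searched as TCACNCCAC and was found in 0 of the 18 sites and in 2.72% of all TRBS. C/EBP-like octamers, TTGCGCAA with at most 1 mismatch, were found in 3 sites, against 12.0% of all TRBS. The EBF motif TCCCNNGGGA was found in 1 site, the strong TRBS with the best DR4 near Scarb1, against 4.54% of all TRBS. In the RefSeq promoter windows, which were available for 5 of the genes (Hmgcs1, Srebf2, Insig1, Insig2 and Abca1), no DR4 was found, and TCACNCCAC was found only in that of Hmgcs1. Over all 32851 promoter windows, the shares were 3.02% for the DR4 and 1.24% for TCACNCCAC.

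Few DR4 elements lay in a TRBS, both around these genes and over the genome. Within 30 kb of the 8 start sites there were 13 elements with at most 1 mismatch, and 0 of them lay in a TRBS. Within 100 kb there were 29, of which 1 lay in a TRBS, the element of the second strongest Scarb1 site. Over the genome, 1.91% of such elements were in a TRBS. When 2 mismatches were allowed, 5 of 250 elements within 100 kb were in a TRBS, against 0.711% over the genome. The 29 included 3 perfect elements. None lay in a TRBS of the list, and over the genome 5.54% of the 1119 perfect elements did. Since weak sites may be missing from the list, binding below its limit was not detectable. The 3 elements are shown for comparison with those in TRBS.
Hmgcs1, chr13:119750693-119750708, reverse strand: AGGTCAgaagAGGTCA
Srebf2, chr15:82189619-82189634, forward strand: AGGTCAtagcAGGTCA
Scarb1, chr5:125329247-125329262, forward strand: AGGTCAagggAGGTCA
The perfect element of Scarb1 lay in the gene, 11840 bp downstream of the TSS and 1975 bp from the edge of the intron 1 TRBS, which itself contained only the DR4 with 2 mismatches. That of Hmgcs1 was 4718 bp from the nearest TRBS, and that of Srebf2 was 40958 bp away. Hmgcs1 also had an element with 1 mismatch, TGGTCAaagaAGGTCA, 939 bp downstream of its TSS, and Srebf2 had AGGTCAgaaaAGGGCA 4021 bp upstream, both outside any TRBS.

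The 8 genes were then placed in a wider list of 55 genes of cholesterol metabolism. A TRBS within 30 kb was present for 17 of the 55, and for 13 of the 47 that are not among the 8 genes (27.7%), against the 16.7% of all protein-coding genes. With a score of at least 60, 13 of the 55 had one (23.6%) and 9 of the 47 (19.1%), against 14.1% of all protein-coding genes. The wider list was also chosen with earlier results of these data known, so these differences were not tested.

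**Figure D4:**
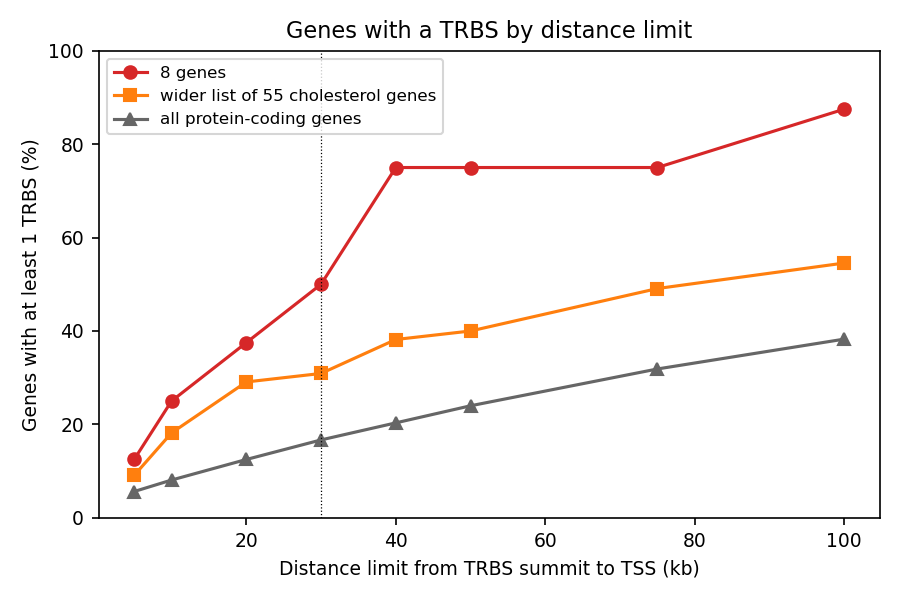
Share of genes with at least 1 TRBS (in %) as a function of the distance limit from summit to TSS (in kb), for the 8 genes, the wider list of 55 and all 21938 protein-coding genes. At 30 kb (dotted line) the shares were 50.0%, 30.9% and 16.7%, and at 100 kb they were 87.5%, 54.5% and 38.3%.

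By role, a TRBS within 30 kb was found for 6 of 20 enzymes of synthesis, 3 of 9 regulators, 4 of 10 genes of uptake and intracellular transport, 3 of 9 genes of export and lipoproteins, and 1 of 7 genes of esterification and conversion. With a score of at least 60, these counts were 5, 2, 3, 3 and 0. Among the enzymes, Fdft1, which encodes squalene synthase, had the site with the most fragments, 60 (45.8 to 77.2), 19560 bp downstream of its TSS with a fold of 35.6. Sc5d, the sterol C5-desaturase, had a site with 33 fragments 7333 bp upstream, and this was the only strongest site outside the 8 genes that contained a DR4, with 1 mismatch. Cyp51 had a site with 20 fragments. The sites of Mvd, with 25 fragments, and of Pmvk, with 6 fragments and a score of 23, were closer to the start sites of Snai3 and Pbxip1. Among the regulators, Srebf1 had a TRBS 2408 bp upstream with 12 fragments, and Nr1h3, which encodes LXRα, had one 7731 bp downstream with 6 fragments and a score of 32. Among the genes of uptake and transport, Lrp1 had 4 TRBS, the strongest 639 bp upstream with 22 fragments, and Vldlr had 1 with 8 fragments and a score of 56. Npc2 had 2 TRBS, and the stronger one, with 32 fragments, was closer to the start site of Isca2. Among the genes of export and lipoproteins, Apoe had a site with 63 fragments (48.4 to 80.6), 1942 bp upstream of its TSS. Its interval overlapped that of the Fdft1 site, but its fold was lower, at 17.1. Pltp had a site with 11 fragments. In the last role, Cyp27a1 had 1 site with 7 fragments and a score of 33, and the bile acid gene Cyp7a1 had no TRBS within 100 kb.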

How the data were processed

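The list of TRBS was deposited by the authors as 1 peak file in mm10 (GRCm38) coordinates. Per the submitters' processing notes, reads were aligned with Bowtie2 2.3.2.2 and peaks were called with MACS2 2.1.1.20160309.6, in the ChIP library against the input. For each peak the deposited values are a score (10 times the −log10 q-value), the fold ratio of ChIP to input at the summit, and the −log10 p-value. A score of 60 was the lower limit in the methods of the study. In the deposited list 897 of the 5107 peaks lie below it, and none was left out here.

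Read totals were not used. The fragments at each summit and the input background were recovered as the whole number that gives both the deposited fold (MACS pseudocount of 1) and the deposited −log10 p, within 0.0005. A match was found for 5090 peaks (99.7%). It was the only one for 5052 peaks, among them the 18 around the 8 genes. Poisson intervals (95%) cover counting error only, since there was no replicate library. Copies of 1 molecule were not told apart by molecular identifiers, so that the intervals may be too narrow.

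Genes were taken from GENCODE M21, with 1 TSS per gene. Distances run from summit to TSS. Motifs were searched on both strands of the whole peak in GRCm38, and flanks began 2 kb beyond each peak edge. The element positions and fragment recovery were tested on simulated data. Promoter windows came from RefSeq (GRCm38.p6). Python 3.11.15, numpy 2.4.6 and scipy 1.17.1 were used. The rule for named genes took every TRBS within 30 kb of the 8 genes and the strongest one at 30 to 100 kb, and in the wider list the strongest TRBS of each gene within 30 kb. The other sites around Hmgcs1 and Scarb1 were added to this. The 8 genes and the lists were chosen with earlier results of these data known. Some genes of the wider list and some neighbouring genes are not reported here by name. Alternatives changed the distance limit, score, start sites, peak position and motif search.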

Additional observations from a re-analysis of the deposited data

How the results depend on the processing

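The results and their alternatives gave 40 recomputed values, of which 19 kept their value within 1.5 times for counts or within the 95% Wilson interval for shares, and 21 moved. With limits of 10, 50 and 100 kb, the genes with a TRBS numbered 2, 6 and 7 of the 8, their TRBS 2, 7 and 18, the genes of the wider list 10, 22 and 30 of 55, and the share of all protein-coding genes 8.09%, 24.0% and 38.3%. With a score of at least 60 the last share was 14.1%. With a score of at least 100 it was 11.3% and the wider list gave 11 genes. With the TSS of every transcript, the share was 19.6% and the TRBS within 30 kb of the 8 genes numbered 8. A DR4 was present in 0 of the 4 near sites with at most 1 mismatch and in all 4 with at most 3, and the share over all TRBS was 7.22% and 72.5%. It was 27.5% within 100 bp of the summit and 34.4% for TRBS scored at least 60. Of the 8 genes, those with a TRBS within 30 kb numbered 4 under both score thresholds, every transcript's TSS, the nearest peak edge, and TRBS nearest to the gene only. No paired analysis was possible because there was 1 ChIP library and 1 input library. A single library of this depth gives no replicate error, and weak sites may be missing from the list.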
